A study of Mus musculus with 2 samples.

Results

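The genes of cholesterol and fatty acid synthesis were followed in 2 libraries of E14, an embryonic stem cell line derived from 129/Ola mice. The 31 genes were taken by symbol from the deposited table of 50508 genes: 19 enzymes of the sterol pathway, 5 genes that control it, 2 sterol transport genes and 5 genes of fatty acid synthesis. All 31 symbols were found, and all 31 genes had a mean of at least 1 FPKM (fragments counted per gene, divided by gene length and library size) over both libraries. The list does not hold every gene of these pathways.

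Both libraries came from cells at passages 15 to 18, grown with 15% serum and with leukemia inhibitory factor (1000 U/ml), a cytokine that holds mouse stem cells undifferentiated, on gelatin-coated plates. One received a scramble siRNA and the other an siRNA against Mettl8, each delivered with Lipofectamine RNAiMAX, and RNA was taken after 72 h. With 1 library in each group, replicate error could not be measured and the groups could not be tested against each other. The study's title asks how Mettl8 bears on differentiation and on the JNK pathway; the lipid genes are described here for their own sake.

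Cells build cholesterol from acetyl-CoA by way of mevalonate, isopentenyl units, farnesyl diphosphate, squalene and lanosterol. SREBP transcription factors, which lie in the membrane of the endoplasmic reticulum, set the transcription of these enzymes. When sterols run low, the escort protein SCAP carries SREBP to the Golgi apparatus, where it is cut free, and when sterols are abundant INSIG proteins hold SCAP back. The same factors act on fatty acid synthesis, in which acetyl-CoA is carboxylated, chained into palmitate and given a double bond by stearoyl-CoA desaturases.

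Mettl8 itself went against the label of its library. Its level was 100.3 FPKM (95% Poisson counting interval 98.8 to 101.9) in the library labelled Mettl8 siRNA, against 0.67 FPKM (0.551 to 0.812) in the one labelled scramble siRNA. Higher and lower below compare the library labelled Mettl8 siRNA with the one labelled scramble siRNA and do not stand for a loss of Mettl8, and pairs of values give the scramble siRNA library first. The table held 22.2 and 21.4 M reads (M for 10 to the power 6), of which the 31 genes took 42252 and 42266. All 12 embryonic stem cell markers listed had a mean of at least 1 FPKM (18.8 to 571 FPKM). None of the 12 fibroblast, 8 endoderm, 6 mesoderm and 8 hepatocyte or adipocyte markers did, and 2 of 6 neuroectoderm markers did (Pax6 at 1.06 and 1.27 FPKM, Nes at 1.06 and 1.21). Of the stem cell markers, 3 had a counting interval of the ratio above 1 and 6 below 1, among them Utf1 (ratio 0.850), Klf4 (0.868) and Sox2 (0.905). Summed levels were 1468.8 and 1436.1 FPKM for the stem cell list, 1.55 and 1.30 for the fibroblast list, and 0.99 and 1.42 for the endoderm list. They were 2.32 and 2.71 FPKM for neuroectoderm, 1.38 in both libraries for mesoderm, and 0.44 and 0.57 for hepatocytes and adipocytes. The part of these shifts in the lipid gene differences was not tested. In a bulk sample a gene expressed in fewer cells and a gene with less RNA per cell cannot be told apart.

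The highest levels were those of Acly, Scd2, Fasn, Hmgcs1 and Srebf2. Acly, whose product ATP citrate lyase makes the acetyl-CoA used by both pathways, was at 54.2 and 53.7 FPKM in the libraries labelled scramble siRNA and Mettl8 siRNA. Scd2, a stearoyl-CoA desaturase gene, followed at 37.2 and 39.1 FPKM, and Fasn, the gene of fatty acid synthase, at 22.7 and 22.2 FPKM. Hmgcs1 encodes the synthase that makes hydroxymethylglutaryl-CoA, and it was at 21.96 and 22.34 FPKM. Srebf2, the gene of the SREBP that acts mainly on cholesterol synthesis, came next at 17.9 and 17.1 FPKM. These 5 genes held the top 5 places in both libraries. The other fatty acid genes lay lower, Scd1 at 9.16 and 9.06 FPKM and Acaca at 3.30 and 3.57 FPKM.

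Of the 8 enzymes from lanosterol to cholesterol, Hsd17b7, Ebp, Tm7sf2 and Dhcr7 lay at the other end, with the rest in the middle of the order. Hsd17b7, a ketosteroid reductase gene of the demethylation complex, was at 1.53 and 1.71 FPKM. Ebp, the gene of a sterol isomerase, was at 1.78 and 2.05 FPKM, and Tm7sf2, a sterol reductase gene, at 2.33 and 2.18 FPKM. Scap, the escort of SREBP, had one of the lowest levels of all 31 genes, at 1.75 and 1.59 FPKM. The other 22 genes lay between 2.68 and 11.6 FPKM. Of the 30 pairs of neighbours in the order of mean level, 4 had counting intervals apart in both libraries, all among the 6 highest genes, and 23 had overlapping intervals in both. The order in the middle is thus not fixed by the counts.

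**Figure D1:**
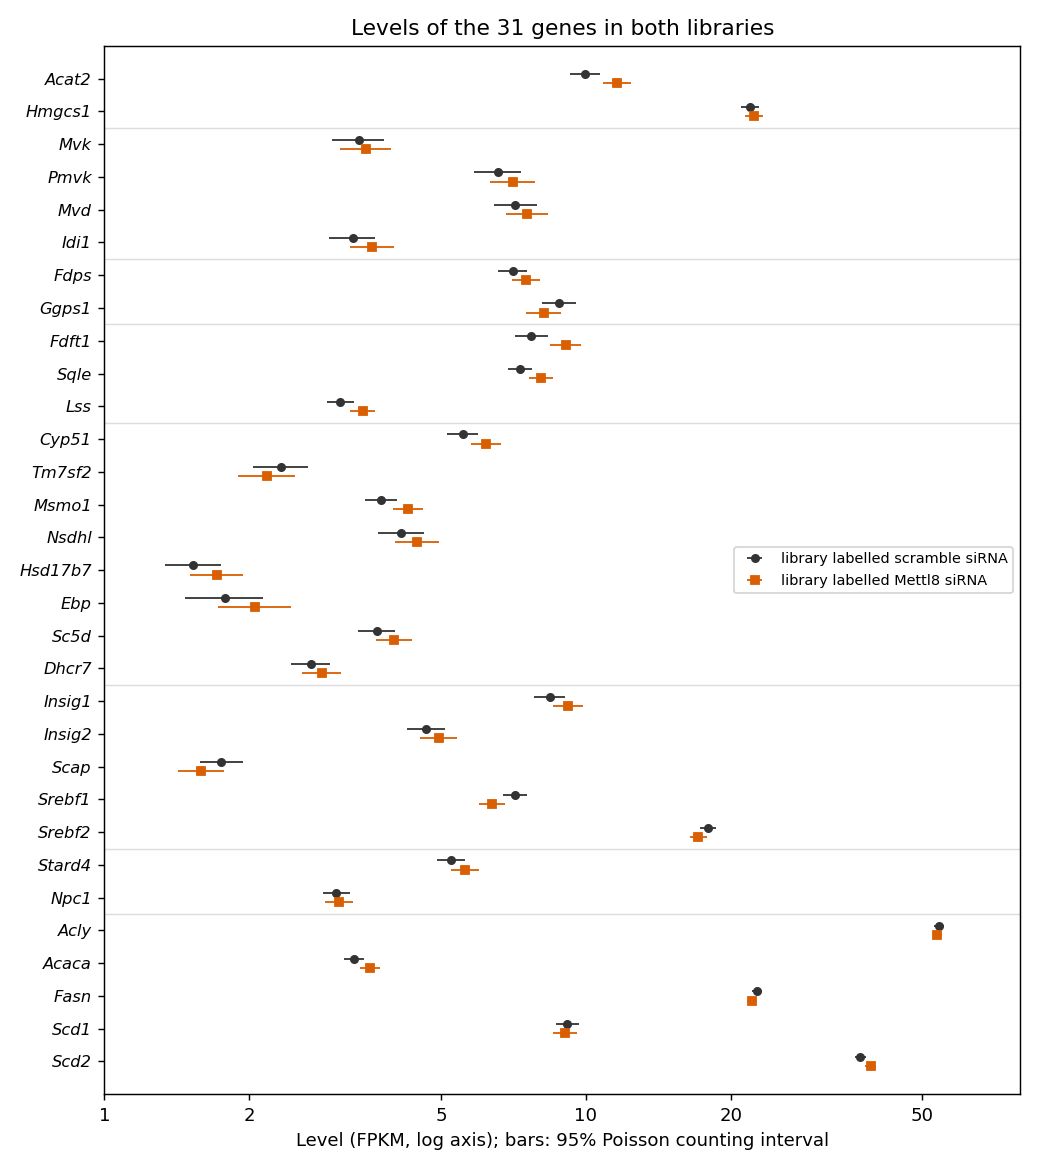
Level of each of the 31 genes in FPKM (x axis, logarithmic) in the libraries labelled scramble siRNA (circles) and Mettl8 siRNA (squares), with 95% Poisson counting intervals as bars and grey lines between pathway steps. Acly stands highest at 54.2 and 53.7 FPKM, and Hsd17b7, Scap and Ebp stand at or below 2.05 FPKM in both libraries.

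Gene length enters each of these levels. For 23 of the 31 genes the deposited length equals all exons of the gene in GENCODE M21, which can exceed the main transcript. It was 4208 bases against 1382 for the principal transcript of Fdps, 6144 against 2044 for Msmo1, and 10787 against 4667 for Lss. For some other genes it was shorter than the principal transcript, such as Ggps1 (2367 against 4244), Fdft1 (2860 against 3698) and Srebf2 (4989 against 5077). Such genes kept their deposited length in the values per principal transcript. Per length of the principal transcript, Fdps, the gene of farnesyl diphosphate synthase, was at 21.5 and 22.8 FPKM instead of 7.05 and 7.50, and moved from place 13 to place 4 in mean level. Msmo1, a sterol methyl oxidase gene, moved from place 20 to place 9. Acly, Scd2 and Fasn kept places 1 to 3 on either length, and Hsd17b7 kept place 31.

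The promoters of most of these genes share a short motif. RefSeq promoter windows (GRCm38.p6, 250 bases before to 50 after a gene's start) were matched by symbol for 24 of the 31 genes; Fdps, Fdft1, Sqle, Stard4, Npc1, Scd1 and Scd2 had no match. CCAAT, the box bound by NF-Y, a factor known to work beside SREBP, was searched on both strands. In the bases before the start, 20 of 24 genes held it (83.3%), against 41.7% of 8173 genes with a mean of at least 1 FPKM and 37.5% of all 27025 genes with a window. The sterol regulatory element core CACNCCAC was found in 3 of 24 (Acat2, Hmgcs1 and Insig1; 12.5%, against 6.69% and 6.05%). The GC box GGGCGG was found in 20 (83.3%, against 65.3% and 35.4%) and the E-box CACGTG in 5 (20.8%, against 10.6% and 6.86%). A gene with several windows counted as holding a motif if any window did, CCAAT can overlap its own copy on the opposite strand, and a match is no proof of binding.

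Stretches of 8 of these promoters are shown because they carry the CCAAT boxes (in capitals, ATTGG where the box lies on the opposite strand) or the CACNCCAC core (in capitals, on either strand). None of the bases shown lies in an exon of GENCODE M21, and each run is written 5′ to 3′ in the direction of transcription. Hmgcs1 (chr13:119690101-119690325, plus strand) has 3 boxes and 1 core, and Mvk (chr5:114444081-114444268, plus strand) has 5 boxes. Mvd (chr8:122443430-122443497, minus strand) has 2 boxes, Lss (chr10:76531528-76531562, plus strand) 1, Insig2 (chr1:121332599-121332740, minus strand) 3, and Fasn (chr11:120824587-120824652, minus strand) 3, with 2 of these overlapping. Srebf2 (chr15:82147119-82147153, plus strand) has 1 box. Acat2 (chr17:12960756-12960921, minus strand) has no box and 2 cores.
Hmgcs1: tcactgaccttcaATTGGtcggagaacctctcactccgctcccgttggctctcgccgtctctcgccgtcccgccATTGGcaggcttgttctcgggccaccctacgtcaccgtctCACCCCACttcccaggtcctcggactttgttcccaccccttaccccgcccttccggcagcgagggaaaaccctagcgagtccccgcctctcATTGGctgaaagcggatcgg
Mvk: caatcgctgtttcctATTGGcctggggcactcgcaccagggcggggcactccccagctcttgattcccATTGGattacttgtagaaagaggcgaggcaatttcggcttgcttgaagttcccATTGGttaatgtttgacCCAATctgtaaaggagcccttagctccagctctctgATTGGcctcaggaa
Mvd: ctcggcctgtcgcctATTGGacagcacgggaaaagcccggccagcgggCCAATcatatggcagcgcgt
Lss: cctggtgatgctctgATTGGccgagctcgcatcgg
Insig2: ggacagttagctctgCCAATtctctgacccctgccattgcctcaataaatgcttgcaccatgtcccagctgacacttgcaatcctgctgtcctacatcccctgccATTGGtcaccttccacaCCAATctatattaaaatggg
Srebf2: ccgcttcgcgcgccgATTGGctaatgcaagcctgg
Fasn: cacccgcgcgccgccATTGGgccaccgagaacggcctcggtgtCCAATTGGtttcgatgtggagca
Acat2: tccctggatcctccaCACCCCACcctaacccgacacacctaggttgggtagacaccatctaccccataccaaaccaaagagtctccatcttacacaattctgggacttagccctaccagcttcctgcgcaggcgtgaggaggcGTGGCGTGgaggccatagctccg

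Among the 20 genes with CCAAT before the start, 15 were higher and 5 lower in the library labelled Mettl8 siRNA. Of all genes with a mean of at least 1 FPKM 54.1% were higher. The median difference of the 20 was 0.08 (-0.14 to 0.15) on the log2(FPKM + 1) scale. The 4 without it, Acat2, Scap, Acly and Acaca, comprised 2 higher and 2 lower genes, with a median of 0.04 (-0.09 to 0.20). With 4 genes on one side, whether the box goes with the difference could not be judged.

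Most of the 31 genes were slightly higher in the library labelled Mettl8 siRNA. On the log2(FPKM + 1) scale 23 of 31 (74.2%) were higher, against 54.1% of all 13243 genes with a mean of at least 1 FPKM and 54.5% of the protein-coding ones; 8 were lower, against 45% of all genes. The median difference was 0.08, against 0.01 for all genes. With each library rescaled to the same FPKM sum the split became 27 higher and 4 lower (75.5% of all genes were then higher), and the median 0.16 against 0.09 for all genes. None of the 31, which are all protein-coding, differed by 1.5-fold. Among all genes 2.11% did, but only 10 of the 9965 protein-coding ones. At least 1.1-fold higher were 4 of 31 (12.9%), which is near the background of 14.2% of all genes and 9.89% of protein-coding genes. At least 1.1-fold lower were 0 of 31, against 13.7% and 9.3%.

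Counting noise gives a second yardstick. The ratio of a gene's levels had a 95% Clopper-Pearson counting interval above 1 in 8 of 31 genes (25.8%), against 11.6% of all genes and 13.8% of protein-coding genes. The interval lay below 1 in 1 of 31, against 7.84% and 8.75%. These intervals cover the counting of reads only, and the spread between cultures was not measured. They were taken at the deposited scaling only. The other scalings multiply every ratio by 0.989, 0.990 or 1.07, so calls with a bound close to 1 depend on the scaling. Among the called genes such bounds were the lower ones of Cyp51 (1.009) and Acaca (1.010) and the upper one of Srebf1 (0.977). Genes not called can cross 1 as well. At a factor of 1.07 lower bounds just under 1 pass it, such as those of Insig1 (0.987), Stard4 (0.971) and Fdps (0.967). At 0.989 the upper bound of Srebf2 (1.0097) falls below 1. The calls were not counted again under these scalings. Protein-coding genes in the same range of levels (1.62 to 53.9 FPKM, 8449 genes) had differences with a standard deviation of 0.13 and a 5th to 95th percentile range from -0.17 to 0.18 on the log2(FPKM + 1) scale. Of the 31 genes, Fdft1 and Acat2 lay outside that range.

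**Figure D2:**
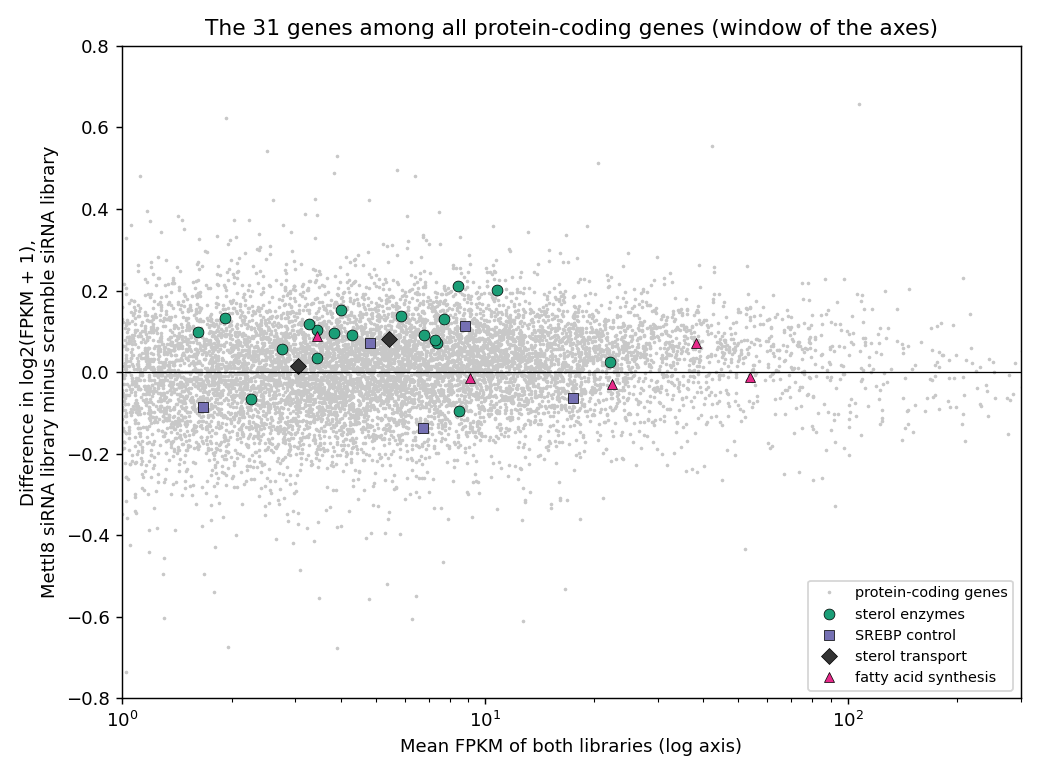
Difference in log2(FPKM + 1), library labelled Mettl8 siRNA minus library labelled scramble siRNA (y axis), against mean FPKM (x axis, logarithmic) for protein-coding genes with a mean of at least 1 FPKM (grey; 43 of 9965 lie outside the axes) and the 31 genes by role. The sterol enzymes (circles) lie mostly above 0, up to 0.21, inside the cloud of other genes.

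Of the 19 enzymes of the sterol pathway 17 were higher (89.5%, against 54.1% of all genes) and 2 lower, with a median difference of 0.10. The split was 17 and 2 under each scaling tried, but the share of all genes moved. With the FPKM sums made equal 75.5% of all genes were higher. The median of the 19 enzymes was then 0.17, against 0.09 for all genes. A counting interval above 1 was found in 6 of 19 (31.6%, against 11.6% of all genes and 13.8% of protein-coding genes), and the other 13 intervals include 1. Their reads summed to 11402 and 12020, a ratio of 1.08 after division by library size (counting interval 1.05 to 1.11). All protein-coding genes together gave 1.01. Without Acat2, whose reads are uncertain for the reason given below, the ratio of the other 18 was 1.073 (1.045 to 1.102).

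At the entry of the pathway, Acat2 and Hmgcs1 differed in size of change. Acat2, which encodes the cytosolic thiolase that joins acetyl-CoA units, was at 9.97 FPKM against 11.6 FPKM in the library labelled Mettl8 siRNA. This is a ratio of 1.17 (1.05 to 1.29) and a log2 difference of 0.20. Acat2 lies on chromosome 17 (GRCm38, 12942890 to 12960747, minus strand) and shares 39.1% of its 50-base words with other genes, the largest part with its near copy Acat3, so that its value depends on how shared reads were assigned. Acat3 was at 31.8 and 35.0 FPKM, a ratio of 1.098 (1.04 to 1.17). Hmgcs1 was close to equal, with a ratio of 1.02 (0.956 to 1.08) resting on 2020 and 2009 reads. Of its exon bases in GENCODE M21 (4594, against a deposited length of 3233), 12.1% overlap Gm48342.

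The 4 genes from mevalonate to isopentenyl units were all higher, by 3% to 10%, each with an interval that includes 1. Of all genes 54.1% were higher. Mvk, the gene of mevalonate kinase, was at 3.38 and 3.49 FPKM, and Pmvk, which adds the next phosphate, at 6.56 and 7.05 FPKM. Mvd, the decarboxylase gene, was at 7.14 and 7.56 FPKM. Idi1, whose product isomerises isopentenyl diphosphate, was at 3.28 and 3.60 FPKM. Of the 50-base words of Idi1 17.7% also occur in other genes, the largest part in Gm13502. Summed over the 4 genes of this step, 1282 and 1338 reads gave a ratio of 1.07 (0.988 to 1.15), a counting interval that includes 1.

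At the branch to prenyl groups the 2 genes went opposite ways. Fdps was at 7.05 and 7.50 FPKM, a ratio of 1.06 (0.967 to 1.17). Of its 50-base words 26.2% also occur in other genes, the largest part in the overlapping gene Gm43738 (12.4 and 13.1 FPKM). Ggps1, which makes geranylgeranyl diphosphate for protein prenylation and is not on the route to cholesterol, was at 8.79 and 8.17 FPKM, a ratio of 0.929 (0.826 to 1.05). Both intervals include 1.

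The 3 genes from farnesyl diphosphate to lanosterol were each higher with an interval above 1, as 11.6% of all genes and 13.8% of protein-coding genes were. Fdft1 encodes squalene synthase, the first step committed to sterols, and was at 7.71 FPKM (7.12 to 8.34) and 9.09 FPKM (8.44 to 9.78). Its ratio of 1.18 (1.06 to 1.31) and log2 difference of 0.21 exceeded those of the other 30 genes. Fdft1 lies on chromosome 14 (GRCm38, 63145150 to 63179578, minus strand). Of its exon bases in GENCODE M21, 18.3% overlap Ctsb, which was at 13.2 and 13.1 FPKM. Those exons cover 4227 bases against a deposited length of 2860, so the overlap of the counted bases is not known.

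Sqle, whose product squalene epoxidase adds the oxygen, was at 7.30 and 8.08 FPKM, a ratio of 1.11 (1.02 to 1.20). Lss, which closes the rings to lanosterol, was at 3.09 and 3.44 FPKM, a ratio of 1.11 (1.02 to 1.22). Summed over the 3 genes the ratio was 1.13 (1.07 to 1.19), from 2729 and 3001 reads.

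From lanosterol to cholesterol 7 of 8 enzymes were higher (87.5%, against 54.1% of all genes). Cyp51, the lanosterol demethylase gene, was at 5.55 and 6.21 FPKM, a ratio of 1.12 (1.01 to 1.24). Msmo1 was at 3.75 and 4.28 FPKM, a ratio of 1.14 (1.02 to 1.27). These were the 2 of the 8 whose interval lay above 1 (25%, against 11.6% of all genes and 13.8% of protein-coding genes). With Acat2 and Fdft1 they made up the 4 genes at least 1.1-fold higher on the log2(FPKM + 1) scale. With a pseudocount of 0.1 there were 8, the others being Sqle, Lss, Ebp and Hsd17b7. The share of all genes at 1.1-fold was not taken at that pseudocount.

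The remaining late enzymes had smaller read counts and intervals that include 1. Nsdhl, a sterol dehydrogenase gene of the same demethylation complex, was at 4.14 and 4.47 FPKM. Sc5d, the gene of a sterol desaturase, was at 3.68 and 4.0 FPKM, and Dhcr7, the gene of a reductase that forms cholesterol, at 2.68 and 2.83 FPKM. Ebp had the widest interval, a ratio of 1.15 (0.893 to 1.49) from 117 and 132 reads. Hsd17b7 had a ratio of 1.12 (0.930 to 1.35). Tm7sf2 was the lower one, with a ratio of 0.936 (0.772 to 1.13). Of its exon bases in GENCODE M21 (4403, against a deposited length of 3484), 12.1% overlap Vps51 (2.67 and 2.66 FPKM). Summed over the 8 genes the ratio was 1.09 (1.04 to 1.15).

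**Figure D3:**
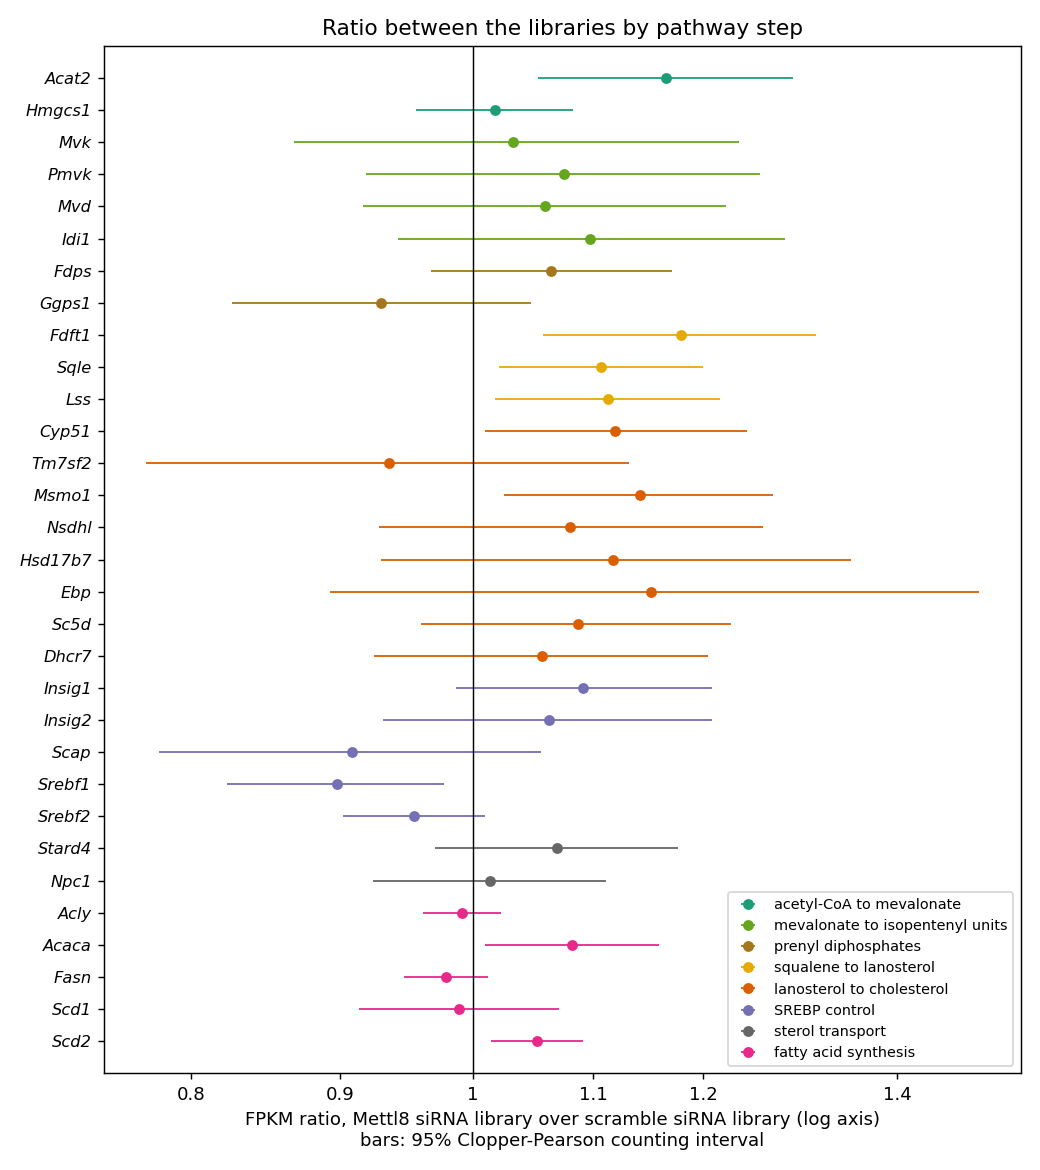
FPKM ratio of the library labelled Mettl8 siRNA over the library labelled scramble siRNA (x axis, logarithmic) for each gene in pathway order, with 95% Clopper-Pearson counting intervals. Points right of 1 run through the sterol steps except Ggps1 and Tm7sf2, while Scap, Srebf1 and Srebf2 lie left of 1 and the fatty acid genes lie between 0.979 and 1.08.

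The control genes did not share one direction. Srebf1, the gene of the SREBP that acts mainly on fatty acid synthesis, was at 7.12 FPKM (6.72 to 7.55) and 6.39 FPKM (5.998 to 6.796), a ratio of 0.897 (0.823 to 0.977). It was the 1 gene of the 31 with an interval below 1, and at -0.14 on the log2(FPKM + 1) scale it fell just short of 1.1-fold. Srebf2 had a ratio of 0.954 (0.902 to 1.01), a direction that turned with the FPKM sums made equal (0.02 in log2), and Scap of 0.909 (0.780 to 1.06). Of Scap's exon bases 13.2% overlap 5830462I19Rik, which was at 1.08 and 1.05 FPKM.

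The INSIG genes, whose products retain SCAP, lay on the other side of 1. Insig1, itself a well-known target of SREBP, was at 8.42 and 9.19 FPKM, a ratio of 1.09 (0.987 to 1.21). Insig2 was at 4.66 and 4.95 FPKM, a ratio of 1.06 (0.931 to 1.21). Summed over all 5 control genes, 5262 and 4975 reads gave a ratio of 0.967 (0.930 to 1.01), an interval that includes 1.

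Both sterol transport genes had ratios above 1 with intervals that include it. Stard4, which carries sterol between membranes, was at 5.25 and 5.61 FPKM, a ratio of 1.07 (0.971 to 1.18). Npc1, which exports cholesterol from lysosomes, was at 3.03 and 3.07 FPKM, a ratio of 1.01 (0.924 to 1.11).

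Fatty acid synthesis held the most reads of the steps, and its genes differed in direction. Its 5 genes took 23828 and 23483 reads, a ratio of 1.01 (0.990 to 1.03), and their median log2 difference was -0.01. Acly had a ratio of 0.991 (0.961 to 1.02) from 8139 and 7886 reads, and Fasn of 0.979 (0.947 to 1.01) from 7059 and 6753 reads. For Acly and Fasn the intervals leave room for differences of a few percent only, as far as counting goes.

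Acaca, the gene of the acetyl-CoA carboxylase that supplies malonyl-CoA, was at 3.30 and 3.57 FPKM, a ratio of 1.08 (1.01 to 1.16), and 30.4% of its 50-base words occur in other genes, the largest part in Gm5182. Scd2 had a ratio of 1.05 (1.01 to 1.09) from 5766 and 5930 reads, a depth at which small differences can exclude 1. Scd1, the desaturase gene best known from liver and fat, was at 9.16 and 9.06 FPKM, a ratio of 0.989 (0.913 to 1.07). Thus 2 of the 5 genes had an interval above 1 (40%, against 11.6% of all genes and 13.8% of protein-coding genes, which were not matched for reads). The other 3, Acly, Fasn and Scd1, had a ratio below 1 with an interval that includes it. These 3 turned to the higher side with the FPKM sums made equal, when 75.5% of all genes were higher.

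Related genes of the pathway were used unequally, and in the same order in both libraries. Scd2 exceeded Scd1 4.06-fold (counting interval 3.81 to 4.31) and 4.32-fold (4.06 to 4.59). Scd3 was at 0.17 and 0.19 FPKM and Scd4 at 0.02 and 0.03, so Scd2 was the most abundant of the 4 Scd genes in these libraries. Srebf2 exceeded Srebf1 2.52-fold (2.35 to 2.70) and 2.68-fold (2.49 to 2.89), which became 1.92-fold and 2.04-fold per principal transcript length. Insig1 exceeded Insig2 1.81-fold (1.60 to 2.03) and 1.86-fold (1.66 to 2.09). Acaca exceeded Acacb, the gene of the carboxylase tied to mitochondria, 1.48-fold (1.35 to 1.63) and 1.75-fold (1.59 to 1.93), or 2.42-fold and 2.87-fold per principal transcript length; Acacb was at 2.23 and 2.04 FPKM.

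Other genes of lipid metabolism were taken from 7 lists of 88 symbols, of which 87 matched the table and 73 had a mean of at least 1 FPKM. Of these 73, 37 were higher (50.7%, against 54.1% of all genes) and 36 lower. The median difference was 0.01, the same as for all genes to 2 decimals. At least 1.1-fold higher were 5 (6.85%) and lower by that size also 5. Both shares were smaller than among all genes (14.2% and 13.7%) and protein-coding genes (9.89% and 9.3%). None differed by 1.5-fold, as 10 of 9965 protein-coding genes did.

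Further enzymes of fatty acid synthesis and elongation comprised 13 lower and 7 higher genes of 20 measured (65% lower, against 45% of all genes; median -0.03). With the FPKM sums made equal the split was 5 lower and 15 higher (75% higher, against 75.5% of all genes). The median was then 0.05, against 0.09 for all genes. Tecr, which completes the elongation cycle, was at 21.7 and 19.3 FPKM, a ratio of 0.887 (0.819 to 0.959), and was the only one of the 20 with an interval that excludes 1. Mcat, the malonyl transferase gene of mitochondrial fatty acid synthesis, was at 7.02 and 7.84 FPKM. Elovl1, an elongase gene, was at 3.43 and 3.11 FPKM, and Hacd1, a dehydratase gene, at 1.54 and 1.36 FPKM.

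Of the further genes of SREBP control 6 of 8 measured were higher (75%, against 54.1% of all genes), with a median of 0.04 and intervals that exclude 1 in both directions. Mbtps2, the gene of the protease that makes the second cut in SREBP, was at 3.37 and 3.74 FPKM, a ratio of 1.11 (1.02 to 1.21). Of the exon bases of Mbtps2 28.4% overlap Yy2, so its value depends on how shared reads were assigned. Vcp, the gene of an ATPase that extracts proteins from the endoplasmic reticulum, was at 47.6 and 45.8 FPKM, a ratio of 0.963 (0.930 to 0.997) from 6566 and 6180 reads. Rnf139, a ubiquitin ligase gene of the endoplasmic reticulum, was at 4.99 and 5.56 FPKM. Erlin1 was at 3.68 and 3.87 FPKM.

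The electron donors of the sterol enzymes comprised 4 measured genes, 3 higher (75%, against 54.1% of all genes) and 1 lower. Cyb5r3, the cytochrome b5 reductase gene, was the lower one at 8.11 and 7.15 FPKM, a ratio of 0.882 (0.804 to 0.967). Cyb5b was at 22.8 and 24.7 FPKM, a ratio of 1.08 (1.03 to 1.14). Cyb5a was at 15.0 and 15.5 FPKM, and Por, which donates electrons to CYP51 and squalene epoxidase, at 4.46 and 4.58 FPKM.

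Genes of sterol efflux and its receptor LXR were the list with the lowest median, -0.09, and 5 of its 5 measured members were lower (of 8 listed), against 45% of all genes. With the FPKM sums made equal, 3 of the 5 were lower (60%, against 24.5% of all genes) and 2 higher. The median was then -0.01, against 0.09 for all genes. Abcg1, a sterol exporter gene, was at 3.39 and 2.85 FPKM, a ratio of 0.841 (0.723 to 0.976). Mylip was at 1.39 and 1.23 FPKM, Lpcat3 at 7.26 and 6.76, and Nr1h2, the gene of LXR beta, at 8.68 and 8.24 FPKM, each with an interval that includes 1. Abca1, another exporter gene, was nearly equal at 6.60 and 6.57 FPKM.

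Sterol uptake, storage and transport genes were mixed, with 4 of 9 measured members higher (44.4%, against 54.1% of all genes) and a median of -0.02. With the FPKM sums made equal 7 of 9 were higher (77.8%, against 75.5% of all genes). Osbpl2, a sterol-binding protein gene, was at 3.58 and 4.28 FPKM, a ratio of 1.196 (1.05 to 1.36). Scarb1, a lipoprotein receptor gene, was at 3.14 and 2.70 FPKM, a ratio of 0.8599 (0.772 to 0.955). Lipa, the lysosomal acid lipase gene, was at 3.63 and 3.14 FPKM, and Osbp at 5.23 and 5.67 FPKM.

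**Figure D4:**
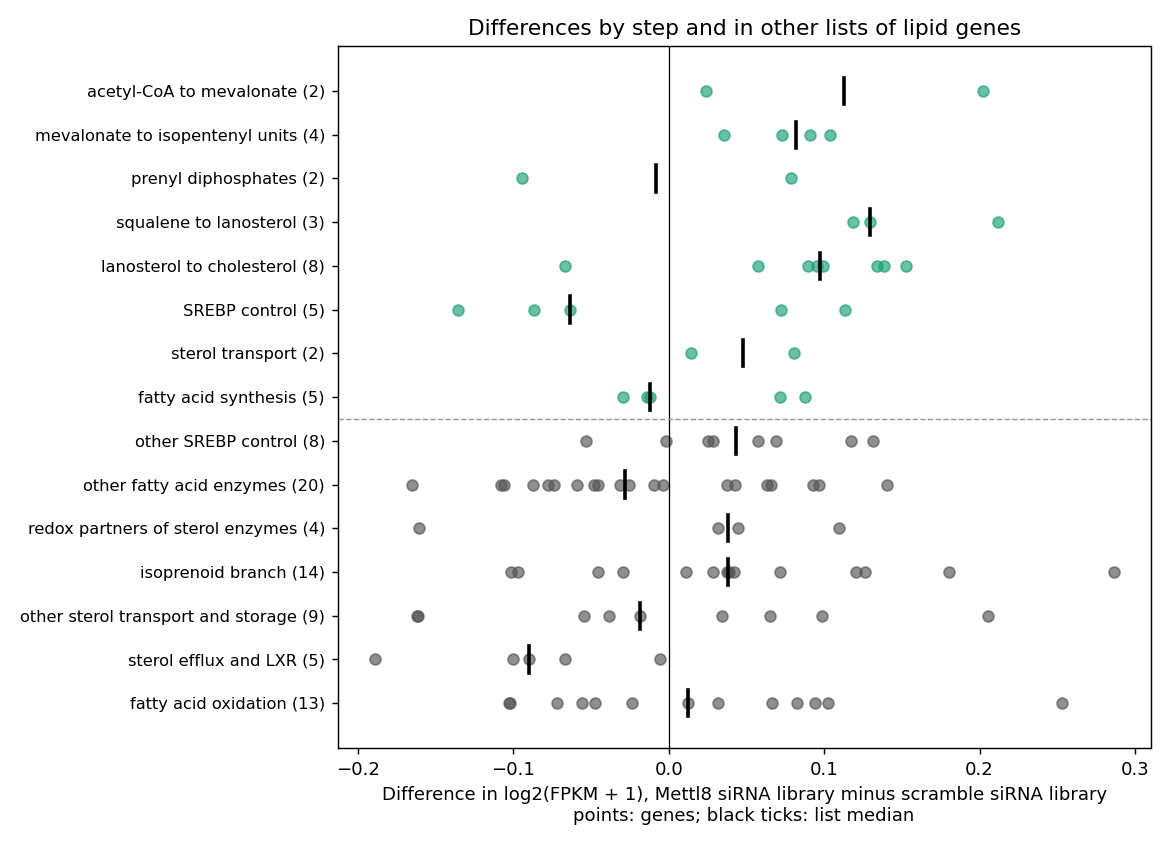
Difference in log2(FPKM + 1), library labelled Mettl8 siRNA minus library labelled scramble siRNA (x axis), for each gene with a mean of at least 1 FPKM in the pathway steps of the 31 genes (above the dashed line) and in the other lists (below it); black ticks are list medians and numbers in brackets count the genes. The medians run from -0.09 for sterol efflux and LXR to 0.13 for squalene to lanosterol.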

How the data were processed

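RNA sequencing gave 1 library for each siRNA. The submitters mention triplicates; the table used here has a single column for each group, and pooling of cultures is neither stated nor denied. The values are FPKM, deposited by the authors with 2 decimals beside a gene length. STAR 2.4.0i and featureCounts 1.5.0-p1 with the mm10 build were used, per the submitters' processing notes. The annotation, the strand setting and the handling of multimapping reads were not given in the sources used here. Reads of overlapping or near-identical genes therefore cannot be told apart.

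Reads per gene were rebuilt because FPKM times length fell on whole multiples of 1 step per library. Of values under 30 reads in genes under 400 bases, 100% of 3121 and of 3563 were whole within rounding plus 0.005 reads. The steps give denominators of 28.5 and 27.8 M reads. Poisson and Clopper-Pearson intervals at 95% come from these reads and cover counting error only. Differences are log2(FPKM + 1), which understates the change of low genes, over genes whose mean FPKM reached 1. A fold of 1.1 or 1.5 on this scale is a rule of size, and no p-value is given.

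Gene type, position, overlap and shared 50-base words come from GENCODE M21 on GRCm38, the assembly of mm10, which holds 94.3% of the table's symbols. Its union of exons equals the deposited length for 23 of the 31 genes. Promoters are from RefSeq (GRCm38.p6), and in 26 of 32 windows the transcribed end matched a GENCODE transcript of the gene. All 31 genes were named, and up to 4 of each further list with the largest differences, plus Acacb, except 1 gene that is not reported here; Scd3, Scd4, Abca1, Vcp, Pax6, Nes, Utf1, Klf4, Sox2 and the overlapping or similar genes were added after their values were seen. The members and lists were chosen with earlier results of these data known. Alternatives were another pseudocount, 3 scalings, other filters and subsets. The steps were tested on simulated data, using Python 3.11.15, scipy 1.17.1 and pandas 2.3.3.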

Additional observations from a re-analysis of the deposited data

How the results depend on the processing

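The values rest on 1 library per group, so the intervals give counting error alone; that of Ebp, with the fewest reads, spans ratios from 0.893 to 1.49. The exclusion of genes that share sequence or exons with others and the use of principal transcript lengths were chosen after seeing the data. No paired analysis was possible because each group has 1 library.

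The median difference of the 31 genes stayed above 0 under each alternative. With a pseudocount of 0.1, 8 of the 31 were at least 1.1-fold higher and 1 lower, and 9 of the further lipid genes were at least 1.1-fold higher. Rescaling each library to the same FPKM sum adds 0.09 to the plain log2 ratio of every gene, and less to low genes on the log2(FPKM + 1) scale. The median of all genes was 0.01 as reported and 0.09 then. Of the 31 genes 19 were then at least 1.1-fold higher and 4 stayed lower. Srebf2, Acly, Fasn and Scd1 changed sign. Of the 73 further genes 58 were then higher, as were 75.5% of all genes, and 15 lower. By 1.1-fold 22 were higher and 0 lower. With the median ratio set to 0, or with equal reads in protein-coding genes, 1 of the 31 was at least 1.1-fold lower in each case, and the median of the further genes turned to -0.0030 and -0.0019; all 31 kept their sign. At a mean FPKM of at least 5, 17 of the 31 remained, 11 of them higher, and 42 further genes, 22 higher, 20 lower, 3 and 2 by 1.1-fold. Of the 9 genes whose interval excludes 1, 8 were higher and 1 lower. Without fatty acid synthesis 5 of 26 were lower. Without genes sharing over 10% of words or exon bases, 2 of 23 were at least 1.1-fold higher. These last subsets hold fewer genes. Shares of promoters with a motif were the same or within 1 gene in the bases before the start only.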

Other observations

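Of the genes that use the isoprenoid branch of the pathway, 10 of 14 measured were higher in the library labelled Mettl8 siRNA (71.4%, against 54.1% of all genes), with a median log2(FPKM + 1) difference of 0.04, against 0.01 for all genes. With the median ratio set to 0, 9 of 14 were higher (64.3%, against 50% of all genes). Pggt1b, the gene of the subunit that directs geranylgeranylation, was at 5.06 and 6.39 FPKM in the libraries labelled scramble siRNA and Mettl8 siRNA, a ratio of 1.263 (95% counting interval 1.103 to 1.445). Fntb, the matching subunit of farnesyltransferase, was at 8.37 and 9.62 FPKM, a ratio of 1.15 (1.05 to 1.26). Zmpste24, a protease gene of prenylated lamin A, was at 3.95 and 4.38 FPKM, a ratio of 1.11 (1.01 to 1.22). Pdss1, which builds the side chain of coenzyme Q, was at 3.49 and 3.90 FPKM with an interval that includes 1. No test between the groups was possible for these values.

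Genes of fatty acid oxidation comprised 7 higher and 6 lower genes of 13 measured (53.8% higher, against 54.1% of all genes). With the FPKM sums made equal 11 were higher (84.6%, against 75.5% of all genes). Hadha, which encodes the alpha subunit of the mitochondrial trifunctional protein, was at 4.43 and 5.47 FPKM, a ratio of 1.23 (1.14 to 1.34). Hadhb, the gene of the beta subunit of the same enzyme, was at 3.72 and 3.54 FPKM, a ratio of 0.952 (0.854 to 1.06); it was named after its value was seen, as the partner of Hadha. Cpt1a, the entry step of fatty acids into mitochondria, was at 7.78 and 7.18 FPKM, Acadl at 3.50 and 3.19, and Acaa2 at 5.66 and 6.15 FPKM, each with an interval that includes 1.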
